A study of Mus musculus with 24 samples.

Results

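Gene expression in the retinal pigment epithelium (RPE) of Per mutant mice was set against that of wild type mice at circadian time 1 (CT1), shortly after the start of the subjective day. The 6 libraries whose labels give CT1 were taken from the 24 of the series. They were 3 libraries labelled Per1-/-Per2Brdm1, called KO here, and 3 wild type (WT) libraries. All came from 6-week-old male mice of the strain C57BL/6/J x 129 SvEvBrd, and the tissue was cut from snap-frozen eyes by laser capture. KO replicate 4and6 and WT replicate 3and6 were each pooled from 2 eyes. Both are germline alleles, present in every cell of the eye, and the sources used here do not name the missing piece of Per1. Nothing in the labels ties each library to its own animal, and the p-values are therefore about differences among libraries, which may be partly technical.

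In the circadian clock, BMAL1 (encoded by Arntl) pairs with CLOCK or NPAS2 and switches on genes that carry E-boxes, among them the Per and Cry repressors, which in turn shut BMAL1 and CLOCK down. REV-ERB and ROR nuclear receptors act against each other on Arntl, and the PAR bZIP factors DBP, TEF and HLF compete with NFIL3 at D-boxes. The RPE is a single pigmented layer that recycles retinoids for vision and engulfs the tips shed by photoreceptor outer segments each day, most actively soon after dawn. The series asks whether Per1 and Per2 are needed for that daily rhythm.

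The KO libraries held 21732799 to 29564156 counts and the WT libraries 16723096 to 24324137. Values are CPM, each gene's count as a share of the library total after TMM scaling, and differences are log2 fold changes of KO over WT. Pairs of libraries within a group had an r across genes of 0.962 to 0.977 on log2(CPM + 1). Summed RPE markers such as Rpe65 and Rgr stood at 34600 to 52780 CPM in KO and 35520 to 44440 CPM in WT, and none of the 13 was at 0. WT replicate 2 stood apart. It had the fewest counts, and its 12 skeletal muscle markers summed to 855 CPM, against at most 50.6 CPM in any other CT1 library. It was also the only one with raised mt-Atp6, mt-Co2 and mt-Co3. Its 13 mitochondrial mRNAs together were not raised, at 28040 CPM against 30850 to 42620 CPM in the other CT1 libraries. Summed rod photoreceptor markers separated the groups too, at 35510 to 41370 CPM in KO and 80060 to 111200 CPM in WT. In captured tissue, fewer cells of a type and less RNA per cell cannot be told apart.

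Per1 and Per2, the altered genes, were higher in the libraries labelled KO. Per2 (ENSMUSG00000055866, GRCm38 chromosome 1, 91415982 to 91459324, minus strand) stood at 109.7, 124.7 and 153 CPM in KO replicates 1, 4and6 and 5, against 10.2, 14.5 and 21.9 CPM in WT replicates 2, 3and6 and 5. Per1 (ENSMUSG00000020893, chromosome 11, 69095217 to 69109960, plus strand) stood at 113.6, 127.9 and 252 CPM in KO, against 40.9, 45.0 and 34.8 CPM in WT. Every KO library lay above every WT library for both genes, and KO replicate 5 was the highest. Per2 rose by log2 3.05 (SE 0.33; adjusted p = 7.8e-05) and Per1 by log2 2.03 (SE 0.33; adjusted p = 0.00469) by the quasi-likelihood test of edgeR, adjusted by Benjamini and Hochberg's method. A two-sided exact permutation of the 6 libraries gave p = 0.1 for each, the smallest that 20 relabellings allow. Counts over all exons of a gene do not show a missing part, so the levels of both genes are no check of the genotype, and the directions given here take the labels as they stand. Without WT replicate 2 the Per1 call was lost, at log2 2.06 with an adjusted p of 0.0563.

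Among the other repressors Ciart, Per3 and Cry2 rose too. Of 8 repressor genes tested, Per1 and Per2 included, 5 rose and none fell, and the median log2 was 1.44, against -0.01 over all 20275 genes tested. In the comparison as a whole, 108 genes passed, or 0.533% of those tested. Ciart (ENSMUSG00000038550, chromosome 3, 95878503 to 95882251, minus strand), which encodes a repressor of BMAL1 and CLOCK, stood at 20.3, 38.9 and 56.7 CPM in KO, against 2.102, 3.17 and 6.97 CPM in WT. This was the largest rise among genes that passed and had a mean of at least 5 CPM over the 6 libraries, at log2 3.23 (SE 0.41; adjusted p = 0.000232). Per3, the third Period gene (ENSMUSG00000028957, chromosome 4, 151003652 to 151044665, minus strand), stood at 150.1, 154 and 289 CPM in KO, against 39.0, 37.4 and 58.5 CPM in WT. Its rise was log2 2.14 (SE 0.27; adjusted p = 0.000164). Cry2, a cryptochrome repressor, stood at 95.7, 98.5 and 109.0 CPM in KO and at 46.6, 71.8 and 51.0 CPM in WT, a rise of log2 0.84 (SE 0.17; adjusted p = 0.0252). Its partner Cry1 did not pass at log2 0.21, and its KO libraries, at 34.7 to 50.4 CPM, overlapped the WT libraries at 26.6 to 39.0 CPM. Bhlhe40 and Bhlhe41, which encode the E-box repressors DEC1 and DEC2, did not pass at log2 0.64 and 0.58, with adjusted p of 0.0777 and 0.0632, although every KO library lay above every WT library for both.

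Of the genes that act through D-boxes, 2 activators rose and the repressor fell. Tef (chromosome 15, 81802421 to 81826863, plus strand) stood at 413, 477 and 480.5 CPM in KO, against 171, 177 and 222 CPM in WT. It rose by log2 1.27 (SE 0.16; adjusted p = 0.00017). Dbp (chromosome 7, 45705088 to 45710203, plus strand) stood at 359, 408 and 370.0 CPM in KO, against 120 to 204 CPM in WT, and rose by log2 1.32 (SE 0.21; adjusted p = 0.00312). Hlf, the third factor of the family, did not pass at log2 0.78 (adjusted p = 0.0622). Nfil3, which encodes their competitor (chromosome 13, 52967209 to 52981073, minus strand), stood at 10.7, 6.79 and 6.66 CPM in KO, against 20.6, 16.6 and 16.5 CPM in WT. It fell by 1.15 on the log2 scale (SE 0.23; adjusted p = 0.0220). The groups overlapped for none of these 4 genes.

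Of the 4 activator genes tested, Arntl and Npas2 were lower, and the nuclear receptors were mixed. Arntl (ENSMUSG00000055116, chromosome 7, 113207465 to 113314126, plus strand) stood at 8.73, 20.8 and 14.9 CPM in KO, against 83.0, 60.6 and 60.04 CPM in WT. It fell by 2.20 on the log2 scale (SE 0.33; adjusted p = 0.00144). With the mean log2 level of 30 rod photoreceptor markers added to the model, its value was log2 -1.22 and did not pass (adjusted p = 0.0692). Npas2, the alternative partner of BMAL1, stood at 0.68, 0.27 and 0 CPM in KO, against 4.90, 6.16 and 4.68 CPM in WT, and passed at a fitted log2 of -4.04 (SE 0.91; adjusted p = 0.0370). Its KO libraries were close to the lowest detectable level, so the size of that fold is poorly fixed. Clock, the other partner, did not pass at log2 -0.24, and the BMAL1 paralogue Arntl2 had log2 0.36 (adjusted p = 0.775).

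Among the receptors, Nr1d2 (REV-ERB beta) rose. Nr1d2 stood at 130.8, 140.0 and 136 CPM in KO and at 80.1, 78.3 and 80.7 CPM in WT, a rise of log2 0.77 (SE 0.15; adjusted p = 0.0149). Nr1d1 (REV-ERB alpha), which overlaps Thra on the opposite strand, had log2 -0.19 and did not pass, although its KO libraries (142 to 149 CPM) lay just below the WT libraries (160.5 to 169 CPM). Rora and Rorb did not pass at log2 -0.45 and -0.74. With the rod marker level as a covariate the values were log2 0.05 for Rorb and log2 0.10 for Rora. At CT1 the rod marker level and the genotype cannot be told apart, and the cause was not tested.

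None of 12 other clock regulators and outputs passed in edgeR's test, with a median log2 of 0.00. At an unadjusted p under 0.05 there was 1, DESeq2 called 1 and limma-voom with quality weights called 0. Of all 20275 genes tested, 19.5% reached that unadjusted p, DESeq2 called 1107 and limma-voom 348. They ranged from log2 -0.77 for the ubiquitin ligase gene Fbxl21 to log2 1.43 for the cell cycle kinase gene Wee1, whose adjusted p was 0.0663. Between them lay the casein kinases Csnk1d (log2 0.09) and Csnk1e (log2 0.01) and the kinase Gsk3b (log2 -0.21). The ubiquitin ligase genes Btrc (log2 -0.32) and Fbxw11 (log2 0.02) lay there as well. So did Timeless (log2 0.34), its partner Tipin (log2 -0.36), the deubiquitinase Usp2 (log2 0.01) and Nampt (log2 -0.02), an enzyme of NAD synthesis.

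**Figure D1:**
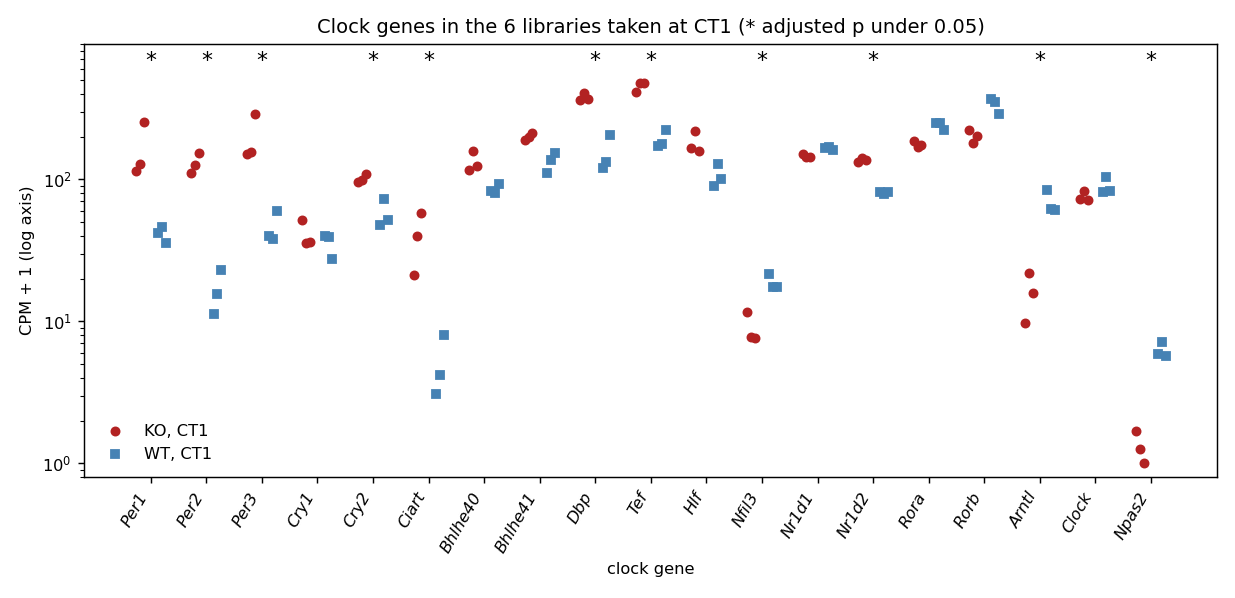
Levels of 19 clock genes in each CT1 library, as CPM + 1 on a log axis, with KO as red circles left of WT as blue squares and an asterisk where the adjusted p was under 0.05. Per1, Per2, Per3 and Ciart in KO lie far above WT, Arntl, Npas2 and Nfil3 in KO lie below WT, and the groups overlap for Cry1 and Clock.

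Without WT replicate 2, Per2, Per3, Ciart, Tef, Dbp and Arntl still passed, with adjusted p of 0.00161 to 0.0346. The calls of Cry2, Nr1d2, Nfil3 and Npas2 were lost beside that of Per1, with adjusted p of 0.17, 0.0991, 0.136 and 0.11. Their log2 values were then 0.73, 0.78, -1.03 and -4.08.

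Promoter stretches of 5 of these genes are shown because they hold the letters of the elements through which clock factors act. The motifs searched on both strands were the E-box CACGTG, the D-box TTATGTAA or TTACGTAA, and AGGTCA, the core letters of elements bound by ROR and REV-ERB. The stretches are from RefSeq on GRCm38.p6, read 5′ to 3′ on the strand of the gene, with the motif in capitals.
Ciart, chr3:95882232-95882379, minus strand, 3 E-boxes: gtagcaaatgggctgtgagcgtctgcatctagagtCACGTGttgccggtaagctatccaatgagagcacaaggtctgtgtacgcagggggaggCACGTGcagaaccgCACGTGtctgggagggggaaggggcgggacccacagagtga
Per1, chr11:69098748-69098823, plus strand, 1 E-box before one of its 2 starts and 1 AGGTCA on the opposite strand, printed as TGACCT: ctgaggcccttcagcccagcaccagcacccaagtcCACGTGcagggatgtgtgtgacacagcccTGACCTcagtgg
Tef, chr15:81802511-81802586, plus strand, 1 E-box: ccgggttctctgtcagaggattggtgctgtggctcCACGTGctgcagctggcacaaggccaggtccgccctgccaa
Per3, chr4:151044781-151044905, minus strand, 2 D-boxes: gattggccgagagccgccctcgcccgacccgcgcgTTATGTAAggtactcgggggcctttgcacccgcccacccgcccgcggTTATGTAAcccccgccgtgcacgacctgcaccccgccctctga
Nfil3, chr13:52981040-52981086, minus strand, 1 AGGTCA on the opposite strand, printed as TGACCT: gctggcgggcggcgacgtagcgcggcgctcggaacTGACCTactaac

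Over all 32851 promoter windows of 250 bases before to 50 after a start, 7.15% held an E-box, 1.06% a D-box and 16.3% the letters AGGTCA. Windows were matched for 12877 of the genes tested, and 10.8%, 0.924% and 15.3% of those genes held the 3 motifs. Of the 29 matched genes that were higher in KO, 6 held an E-box (20.7%). They were Ciart, Per1, Tef, Coq10b, Inf2 and Ptpdc1. A D-box was in 3 of them (10.3%), Per3, Coq10b and Gm15348, and AGGTCA in 5 (17.2%). Of the 49 matched genes that were lower in KO, 5 held an E-box (10.2%), 0 a D-box and 10 AGGTCA (20.4%). The genes in these counts outside the naming rule were named after their values were seen. These are counts of letters with no test, a match is not a bound site, and Per2 had no matched window.

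Across the genome, 45 genes were higher in KO at CT1 (0.222% of those tested) and 63 were lower (0.311%). The split moved with the scaling, to 69 higher and 58 lower with RLE factors and 77 higher and 25 lower with library totals alone. Of the 108, 103 were protein coding. The median log2 was 1.10 over the higher genes and -1.34 over the lower ones. In all 108 the KO and WT libraries did not overlap. That separation alone was common, with every KO library above every WT library in 10.1% of genes tested and below in 14.6%. An unadjusted p under 0.05 was reached by 3960 genes, or 19.5%. The count of 108 depended on single libraries. It was 20 without WT replicate 2 (0.0936% of the genes tested there), 32 without WT replicate 3and6, 33 without KO replicate 5, 36 without KO replicate 1, 60 without KO replicate 4and6 and 151 without WT replicate 5. No gene among the 108 changed its direction in these fits. That was largely fixed in advance, since KO and WT did not overlap in any of the 108, and it is no sign of stability.

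**Figure D2:**
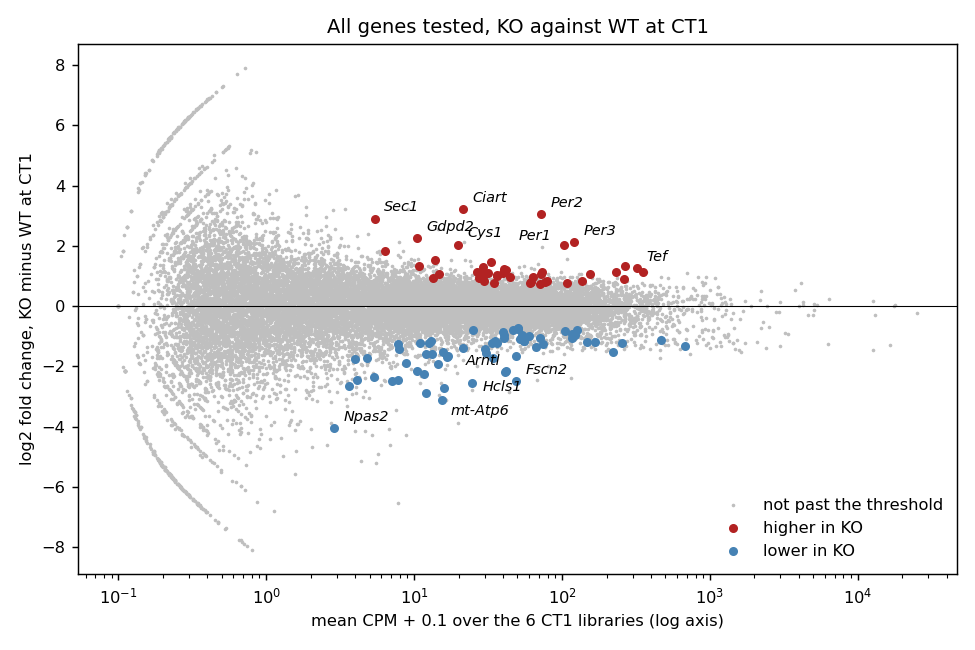
Each of 20275 genes tested, with its mean CPM + 0.1 over the 6 CT1 libraries (log axis) against its log2 fold change of KO over WT. The 45 genes higher in KO are red and the 63 lower in KO are blue. Ciart and Per2 are the highest red points, and Npas2 is the lowest blue point.

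Several genes outside the clock rose as much as Per1 did. Gdpd2, a glycerophosphodiesterase gene (chromosome X, 100729873 to 100738895), stood at 14.5, 23.7 and 13.4 CPM in KO, against 3.44, 2.997 and 4.35 CPM in WT. It rose by log2 2.26 (SE 0.31; adjusted p = 0.00039). Cys1, which encodes cystin, a protein of primary cilia (chromosome 12, 24665833 to 24681813), stood at 36.2, 32.2 and 26.6 CPM in KO, against 8.34, 6.50 and 8.25 CPM in WT, and rose by log2 2.04 (SE 0.29; adjusted p = 0.000668). Sec1, a fucosyltransferase gene that lies beside Dbp on chromosome 7 (45677686 to 45694402) and overlaps Ntn5, stood at 10.96, 10.7 and 6.81 CPM in KO and at 0.764, 1.52 and 1.47 CPM in WT. It rose by log2 2.90 (SE 0.47; adjusted p = 0.00314). The non-coding Gm15348 rose by log2 1.82. All 4 calls held without WT replicate 2.

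The other genes of the 20 largest rises lay between log2 1.13 and 1.53. They were the kinase gene Alpk1 (log2 1.53), the imprinting factor Zfp57 (1.47), Lrrc29 (1.33) and Rassf2 (1.31), which encodes a Ras association protein. They also included the cell surface protein gene Adam23 (1.24), the basement membrane gene Fras1 (1.205), the scaffold gene Caskin1 (1.15), Aifm3 (1.14), the nuclear receptor gene Nr2e1 (1.14) and the membrane adaptor gene Pag1 (1.13), all on the log2 scale of KO over WT. Zfp57, for example, stood at 51.7, 44.8 and 47.9 CPM in KO, against 13.5, 14.1 and 24.5 CPM in WT. Of these 10, Fras1 still passed without WT replicate 2, at an adjusted p of 0.0385, and the others did not.

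Apart from 3 mitochondrial genes, the largest fall among genes that passed with a mean of at least 5 CPM was that of Hcls1, which encodes an actin-binding protein of the cortactin family known from blood cells (chromosome 16, 36934983 to 36963212). It stood at 4.24, 8.5 and 8.48 CPM in KO, against 33.4, 52.6 and 39.3 CPM in WT, and fell by 2.56 on the log2 scale (SE 0.32; adjusted p = 0.000164). Without WT replicate 2 it still passed, at log2 -2.69. The immune cell list, which does not hold Hcls1, had a median log2 of 0.39, and none of its 14 members passed in edgeR's test (1 at an unadjusted p under 0.05, and 0 by DESeq2 or limma-voom).

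Fscn2 and Cplx3 were among the other falls. Fscn2, the retinal fascin that bundles actin in photoreceptors (chromosome 11, 120361534 to 120368168), stood at 15.6, 10.8 and 18.3 CPM in KO, against 111.5, 77.9 and 60.7 CPM in WT. It fell by 2.48 on the log2 scale (SE 0.49; adjusted p = 0.0253). Cplx3, a complexin of retinal ribbon synapses (chromosome 9, 57599992 to 57606281), stood at 11.5, 18.6 and 15.9 CPM in KO, against 63.6, 78.0 and 61.4 CPM in WT, and fell by 2.14 (SE 0.36; adjusted p = 0.0065). The calcium sensor gene Vsnl1 (log2 -2.37), the gap junction gene Gjd2 (log2 -1.90) and Rundc3a (log2 -1.71) also fell. In Vsnl1, WT replicate 3and6 stood far above the rest at 17.5 CPM, with the other WT libraries at 4.14 and 4.63 CPM and KO at 1.49 to 2.08 CPM.

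Further falls were those of the axonemal dynein gene Dnah9 (log2 -2.44), the tubulin gene Tube1 (log2 -2.17), the guanine nucleotide exchange factor gene Dock8 (log2 -1.90) and the matricellular gene Ccn4 (log2 -1.70). Pgam1, a glycolytic enzyme (log2 -1.65), Top1mt, the mitochondrial topoisomerase (log2 -1.64), and the phosphatases Dusp14 (log2 -1.60) and Dusp5 (log2 -1.57) fell as well. The non-coding C430042M11Rik (log2 -2.48) and Gm48581 (log2 -2.27), which overlaps Rnf144b, completed the group. Of the 20 largest falls, Arntl, Hcls1, Cplx3 and Dnah9 still passed without WT replicate 2. The 3 mitochondrial genes rested on that library. mt-Atp6 stood at 2.44, 3.46 and 3.53 CPM in KO and at 72.4, 5.07 and 4.90 CPM in WT replicates 2, 3and6 and 5. Its log2 was -3.12 with all libraries and -0.65 (adjusted p = 0.514) without WT replicate 2, and mt-Co2 and mt-Co3 did likewise, at log2 -2.72 and -2.87 with all libraries and -0.49 and -0.42 without it.

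Rod markers lay below 0, most of them without a call in edgeR's test. All 30 rod genes tested had a log2 below 0, with a median of -1.29, and in 28 every KO library lay below every WT library. Such a separation was seen in 14.6% of all genes tested. Of the 30, Fscn2 passed in edgeR's test, while DESeq2 called 15 and limma-voom with quality weights 16, all lower. Among all 20275 genes tested, DESeq2 called 643 lower and limma-voom 247. Gnat1, which encodes rod transducin, stood at 10400, 8596 and 9875 CPM in KO, against 24630, 24400 and 21290 CPM in WT (log2 -1.28, adjusted p = 0.0953). Gnb1 (log2 -1.25) and Sag, the arrestin gene (log2 -0.92), did not pass either. At CT10 the summed rod markers ran from 45370 to 72550 CPM in KO and from 36280 to 56990 CPM in WT. At CT19 they ran from 63450 to 112200 CPM in KO and from 42520 to 88760 CPM in WT, and at CT22 from 42740 to 132900 CPM in KO and from 25320 to 54840 CPM in WT. Groups overlapped at these 3 times, and at CT1 they did not.

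**Figure D3:**
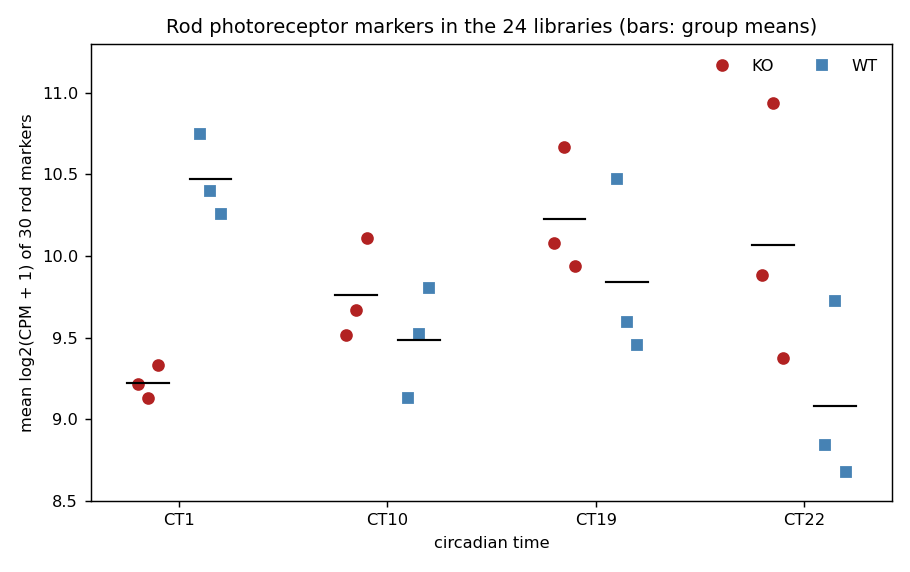
Mean log2(CPM + 1) of 30 rod markers in each of the 24 libraries by circadian time, with KO as red circles left of WT as blue squares and bars at the group means. At CT1 the 3 KO libraries lie between 9.13 and 9.33 and the 3 WT libraries between 10.26 and 10.75, while at the other times the groups overlap.

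With this rod score as a covariate, 12 genes passed (0.0592% of those tested), 9 higher (0.0444%) and 3 lower in KO (0.0148%). Of the 108 genes, 8 were among them. They were Per2 (log2 2.76), Ciart (2.73), Cys1 (2.22), Gdpd2 (2.22), Per3 (2.08), Tef (1.17), Hcls1 (log2 -1.96) and the non-coding 2610507I01Rik (log2 -3.13). The other 4, named after their values were seen, were Gzmm (log2 2.05), Rasl10b (1.94), Plk5 (1.24) and Tubb2a (log2 -1.25). The 2 directions differed in how much was left. The median of the 45 higher genes was log2 0.78 with the covariate, against 1.10 without it, and that of the 63 lower genes was -0.71, against -1.34. Under 50% of the log2 value was left in 3 of the 45 and in 27 of the 63. All 108 kept their direction. At CT1 the covariate differs between the groups with no overlap, so the rod level and the genotype cannot be told apart from the CT1 libraries alone, and the fit leans on the other times.

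**Figure D4:**
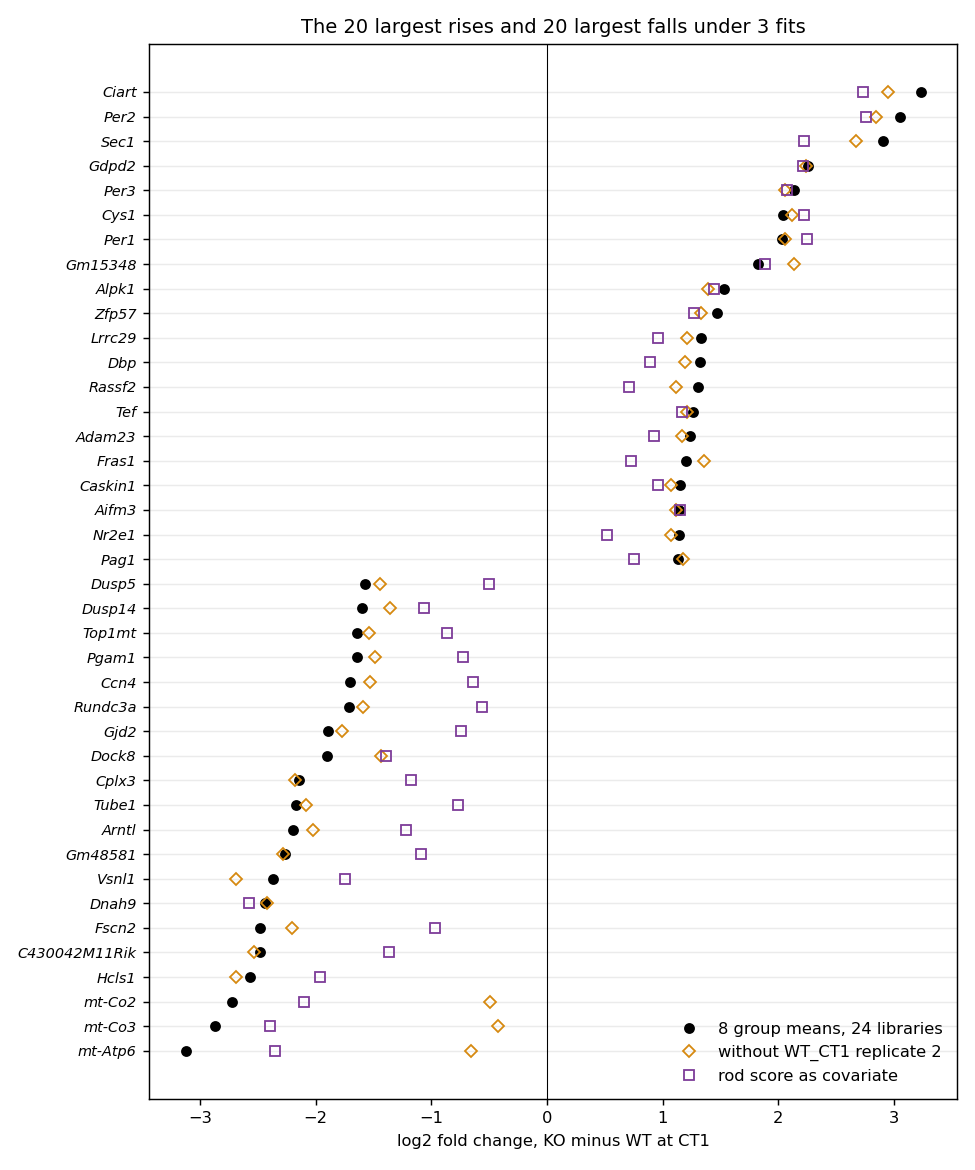
Log2 fold change of KO over WT at CT1 for the 20 largest rises and 20 largest falls, with all 24 libraries (black), without WT replicate 2 (orange diamonds) and in the fit that holds the rod score as a covariate (purple squares). The purple squares of most falls lie nearer 0 than the black points, those of Per1, Per2, Per3, Cys1 and Gdpd2 lie close to them, and the 3 mitochondrial genes move towards 0 without WT replicate 2.

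Of 110 markers of other cell types none passed in edgeR's test, with 28 at an unadjusted p under 0.05. DESeq2 called 8, all lower, and limma-voom 0. Among all 20275 genes tested, 19.5% reached that unadjusted p, DESeq2 called 1107 and limma-voom 348. All 9 fibroblast markers had a log2 above 0 (median 0.41), for example Col1a2 at log2 0.64 (adjusted p = 0.173), as did 11 of 13 endothelial markers (median 0.35). Of 10 cone markers, 9 were below 0 (median -0.90), Opn1sw at log2 -1.04 among them. So were 19 of 21 inner retinal neuron markers (median -1.49) and 5 of 6 Mueller glia markers (median -1.26), with the glutamate transporter gene Slc1a3 at 24.2 CPM in WT replicate 3and6 and 1.34 to 7.96 CPM in the other 5 libraries. Summed inner retinal neuron markers overlapped between groups, at 738 to 897 CPM in KO and 763 to 898 CPM in WT. So did summed Mueller glia markers, at 4363 to 7749 CPM in KO and 5358 to 7420 CPM in WT. Summed cone markers did not, at 120 to 266 CPM in KO and 322 to 524 CPM in WT. The medians given above moved between fits. They were, without WT replicate 2, 0.19 for fibroblasts, 0.20 for endothelium, -0.50 for cones, -1.63 for inner retinal neurons and -0.77 for Mueller glia. With the rod score as a covariate they were -0.52, -0.64, -0.086, -0.69 and -0.54 in the same order, so those of fibroblasts and endothelium changed sign. The 12 muscle markers had a median log2 of -3.67 with all libraries and 0.28 without WT replicate 2. Acta1, skeletal muscle actin, stood at 104.7 CPM in that library and at most 4.90 CPM in the other 5.

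Genes of outer segment uptake, the RPE task that is most active soon after dawn, did not pass in edgeR's test in any of 25 tested. At an unadjusted p under 0.05, 6 were higher and 2 lower, DESeq2 called 4 higher and 2 lower, and limma-voom called 0. The median log2 was 0.20, with 16 members above 0. Every KO library lay above every WT library in 7 of them and below in 2, against 10.1% and 14.6% of all genes tested. An unadjusted p under 0.05 was reached by 19.5% of all 20275 genes tested, of which DESeq2 called 1107 and limma-voom 348. Myo7a, the myosin that moves melanosomes and phagosomes, stood at 306, 375 and 439 CPM in KO, against 228, 191 and 283 CPM in WT (log2 0.68, SE 0.23, adjusted p = 0.120). Lrp1, a scavenger receptor gene, stood at 1135, 1459 and 986 CPM in KO and at 884, 758 and 801 CPM in WT (log2 0.55, SE 0.26, adjusted p = 0.250). Neither difference passed, which does not show that the groups were alike. With the rod score as a covariate the median of the list was log2 -0.14.

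The RPE's own genes were not called either. Of its 13 markers none passed in edgeR's test, at an unadjusted p under 0.05, in DESeq2 or in limma-voom. A log2 above 0 was found in 10 of them (median 0.19), and the visual cycle isomerase gene Rpe65 stood at 4002, 5640 and 3711 CPM in KO, against 3299, 2809 and 3183 CPM in WT (log2 0.52, adjusted p = 0.341). With the rod score as a covariate the median of the markers was log2 -0.41 and the value of Rpe65 was -0.09. None of 13 visual cycle, 14 melanogenesis, 19 RPE identity, 39 phagosome and lysosome or 19 autophagy genes passed. In these lists and the adhesion genes together, 17 had an unadjusted p under 0.05, DESeq2 called 6 (2 higher and 4 lower) and limma-voom 4 (1 higher and 3 lower). Gabarapl1, an autophagosome gene, came nearest among the most abundant, at log2 -0.92 with an adjusted p of 0.0533. Of the 12 adhesion genes none passed, and Cdh3, the P-cadherin gene of this epithelium, stood at 173, 145 and 74.0 CPM in KO, against 311.5, 246 and 249 CPM in WT (log2 -1.04, SE 0.26, adjusted p = 0.0596). Of the transport genes 1 of 15 fell. This was the water channel gene Aqp1, at 71.1, 75.2 and 84.1 CPM in KO and 207, 156 and 110.2 CPM in WT, a fall of 1.04 on the log2 scale (SE 0.20; adjusted p = 0.0149), with WT replicate 2 the highest. Without that library the call was lost, at log2 -0.79 (adjusted p = 0.167), as it was with the rod score as a covariate, at log2 -0.71 (adjusted p = 0.645).

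Nuclear genes of oxidative phosphorylation, glycolysis and ribosomal proteins lay below 0 in KO nearly throughout. Of these, edgeR's test called 2, each lost without WT replicate 2. The 3 mitochondrial genes that passed are given above and are not in these lists. Of 74 nuclear genes of oxidative phosphorylation 71 had a log2 below 0 (median -0.40), and in 52 every KO library lay below every WT library. The share of all genes tested with that separation was 14.6%. Cox5a, a subunit of cytochrome c oxidase, fell by 0.98 (43.8, 38.9 and 37.2 CPM in KO, against 90.5, 72.9 and 72.5 CPM in WT; SE 0.21; adjusted p = 0.0303). Its value was log2 -0.85 without WT replicate 2 (adjusted p = 0.17) and log2 -0.54 in the fit with the rod score (adjusted p = 0.713). Atp5b, a subunit of ATP synthase, did not pass at log2 -0.72. Over the 74 genes, 40 were lower at an unadjusted p under 0.05, DESeq2 called 8 lower and limma-voom 1. For this and the next 2 lists, 19.5% of all 20275 genes tested reached that unadjusted p in either direction. Among those 20275, DESeq2 called 643 lower and limma-voom 247. Of 22 glycolysis genes 19 lay below 0 (median -0.48) and 1 passed in edgeR's test, while DESeq2 called 8 lower, limma-voom 4 lower, and 13 were lower and 1 higher at an unadjusted p under 0.05. The gene that passed was Pgam1, at 15.1, 28.7 and 27.0 CPM in KO, against 88.2, 69.2 and 64.6 CPM in WT. Hk1 (log2 -1.03), Pkm (log2 -0.97) and Aldoa (log2 -0.70) did not pass. Of 77 ribosomal protein genes 73 lay below 0 (median -0.44) and none passed in edgeR's test, Rpl4 (log2 -0.75) and Rpl8 (log2 -0.67) among them. At an unadjusted p under 0.05, 28 of them were lower, DESeq2 called 2 lower and limma-voom 1. With the rod score as a covariate the medians were -0.19 for oxidative phosphorylation, -0.03 for glycolysis and 0.04 for ribosomal proteins.

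The actin and glucocorticoid lists held calls. Flna, which encodes the actin cross-linker filamin A, rose by log2 0.91 (313, 340.3 and 380.5 CPM in KO, against 155, 188 and 205 CPM in WT; SE 0.21; adjusted p = 0.0427), and Hcls1 fell in the same list of 23 actin genes. Tsc22d3, a glucocorticoid-induced gene, rose by log2 0.97 (64.0, 63.0 and 49.9 CPM in KO, against 25.0, 32.03 and 33.2 CPM in WT; SE 0.18; adjusted p = 0.0130), and the other 9 genes of its list did not pass. The calls of Flna (log2 0.82, adjusted p = 0.199) and Tsc22d3 (log2 0.86, adjusted p = 0.0991) were lost without WT replicate 2. With the rod score as a covariate they were lost too, at log2 0.59 (adjusted p = 0.713) and log2 0.55 (adjusted p = 0.645). No gene passed among 19 immediate early, 14 heat shock, 2 cold-inducible, 16 ER stress, 26 interferon and MHC class I, 7 MHC class II or 11 complement genes. The same was true of 22 cholesterol, 24 fatty acid oxidation, 22 antioxidant and 15 cell cycle genes. These 11 lists held 178 genes, of which 34 had an unadjusted p under 0.05. DESeq2 called 10 of them (4 higher and 6 lower) and limma-voom 2 (1 higher and 1 lower). Over all 20275 genes tested, 19.5% had an unadjusted p under 0.05, DESeq2 called 1107 and limma-voom 348. Hsp90aa1, a heat shock chaperone, had log2 -0.78 (adjusted p = 0.0592) and Rbm3, a cold-inducible gene, log2 0.62 (adjusted p = 0.0840).

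**Figure D5:**
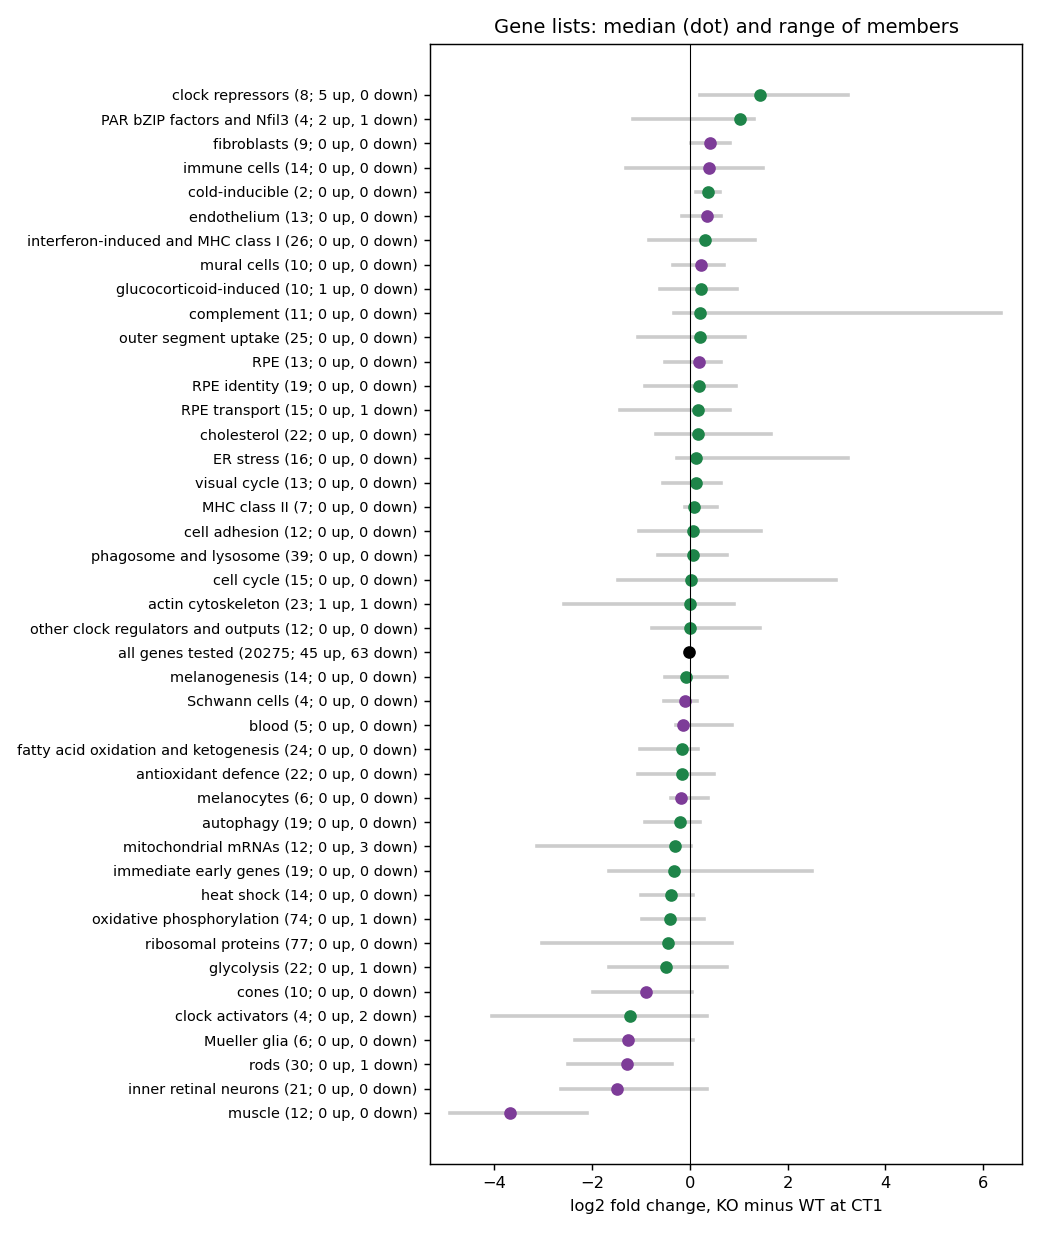
Median log2 fold change of KO over WT at CT1 (dots; green for gene lists, purple for cell type markers, black for all genes) with the lowest to the highest member (grey bars), and in brackets the members tested and those past the threshold. Clock repressors lie highest at 1.44, RPE and uptake genes lie near 0.2, and rods, inner retinal neurons and muscle lie below -1.

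With all libraries, the fit that called 108 genes at CT1 called 7 genes at CT10 (0.0345%), 14 at CT19 (0.0691%) and 46 at CT22 (0.227%), in libraries of their own. The counts were not tested against each other, and the CT1 count moved with the fit. It was 20, 32, 33, 36, 60 or 151 without single CT1 libraries and 12 in the fit that held the rod score. The counts given for the other times are those with all libraries and no rod score, so these reduced CT1 counts are not like for like with them. Of the CT1 genes, 2 were also called at CT10 (1.85% of the CT1 genes and 28.6% of the CT10 genes), 6 at CT19 (5.56% and 42.9%) and 12 at CT22 (11.1% and 26.1%). Per2, Ciart, Cry2 and Dbp were called at CT1, CT19 and CT22. Per1, Per3, Tef, Nr1d2 and Tsc22d3 were called at CT1 and CT22, and Nfil3 at CT1 and CT19. 2610507I01Rik was called at CT1, CT10 and CT22.

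Set against the mean of the differences at CT10, CT19 and CT22, the CT1 difference itself passed in 2389 genes (11.8%). Of these, 757 were upwards (3.73%) and 1632 downwards (8.05%). Among them were 93 of the 108, but the 108 were picked by the CT1 difference, which is part of this contrast. That count was therefore favoured by the choice of genes. For Per2 the gap was log2 1.69 (adjusted p = 0.00861), since the KO minus WT value was log2 -0.50 at CT10, 2.06 at CT19, 2.54 at CT22 and 3.05 at CT1. For Per3 it was log2 1.56 (adjusted p = 0.00696), for Arntl -1.74 (adjusted p = 0.00836) and for Tef 0.76 (adjusted p = 0.0124). For Per1 (log2 1.07, adjusted p = 0.0588), Ciart (log2 1.11, adjusted p = 0.104) and Dbp (log2 0.39, adjusted p = 0.314) it did not pass. Nr1d1, whose KO minus WT value was log2 1.15 at CT19 and 0.85 at CT22, had a gap of log2 -0.78 that passed (adjusted p = 0.00860).

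The 10 genes of smallest p in this contrast were Pgam1 (gap of log2 -2.33), Dusp14 (-2.01), Rundc3a (-2.49), Dusp5 (-2.50), Ubtd1 (-1.96), the co-activator gene Cited2 (-1.63), Sdhaf1 (-1.48), an assembly factor of respiratory complex II, Ccdc117 (-1.44), Npepl1 (1.06) and Aifm3 (1.57), all with an adjusted p of 0.00696. In each, the KO minus WT value at CT1 had the opposite sign to that at CT22. Both values are part of the contrast that picked these genes, so opposite signs were favoured by the choice. Of the 30 rod markers, 28 passed downwards in this contrast, and once the rod score was a covariate 0 genes passed it in edgeR's test (1416 at an unadjusted p under 0.05; no other tool was run with the covariate). Without WT replicate 2 it held 392 genes.

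Calls near the altered loci are given apart, since there the genotype and the strain of origin of the chromosome cannot be told apart. Over all 20275 genes tested, 0.533% passed in either direction and 0.311% passed as lower in KO. An excess near either locus was not tested. Within 20 Mb of Per1, 3 of 666 other genes tested passed (0.45%), and all were lower in KO. They were Dnah9 at 3.10 Mb, the non-coding 2610507I01Rik at 9.90 Mb and Dusp14 at 14.96 Mb. Within 20 Mb of Per2, 3 of 251 passed (1.2%), also lower, namely Thap4 at 2.29 Mb (log2 -0.79), D1Ertd622e at 6.20 Mb (log2 -1.34) and the pseudogene Gm5529 at 11.51 Mb (log2 -1.77). 2610507I01Rik stood at 0.503, 1.17 and 1.26 CPM in KO, against 2.87, 6.71 and 8.66 CPM in WT (log2 -2.64, SE 0.49, adjusted p = 0.0117). Of these 6 genes, Dnah9 and 2610507I01Rik still passed without WT replicate 2. It was also below 0 at CT10 (log2 -4.25), CT19 (log2 -2.25) and CT22 (log2 -2.98).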

How the data were processed

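Laser-captured mouse RPE gave RNA by the RNeasy Micro kit, which was made into libraries with the KAPA mRNA HyperPrep kit, per the labels' protocols. Raw read counts per gene were deposited by the authors, as whole numbers with no normalization, for 54232 Ensembl identifiers, of which 54079 had a symbol in the mouse GENCODE annotation on GRCm38. Per the submitters' processing notes, the build was GRCm38.p6 and the tools were HTSeq 0.11, HISAT2 2.1.0, Trimmomatic 0.32 and Cufflinks. Which annotation was counted, and with which strand setting, is not given in the sources used here. So values of overlapping genes, on the same or the opposite strand (Dbp with Sphk2, Nr1d1 with Thra, Per3 with Camta1, Sec1 with Ntn5) and of genes with near-identical copies (ribosomal proteins, mitochondrial genes) are uncertain. All columns were mapped to a sample (0 were left).

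The 8 groups of 3 libraries (24 in all, 6 of them at CT1) were fitted together in R 4.3.3 with edgeR 4.0.16. The filter filterByExpr at a minimum count of 10 kept 20275 genes, and TMM gave the scaling factors. The quasi-likelihood model held 8 group means, so CT1 shared its estimate of spread with the other times (16 residual degrees of freedom). The contrasts were KO minus WT at CT1, and that difference minus the mean difference at CT10, CT19 and CT22. The threshold was an adjusted p under 0.05, by the Benjamini-Hochberg method across the whole table. On data simulated from these libraries, the test was checked before use. Repeats of one library were looked for, and no within-group pair came near it, the lowest chi-square statistic divided by its degrees of freedom being 25.4.

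The rod score is the mean log2(CPM + 1) of 30 rod markers. Promoter letters were counted in RefSeq windows on GRCm38.p6. Lists are described by counts and medians, with no test of the list. The naming rule took every tested clock gene, the 20 largest rises and 20 largest falls past the threshold with a mean of at least 5 CPM at CT1 and no overlap of KO and WT, list members past the threshold with a few of their most abundant members, the 10 genes of smallest p against the other times, and genes past the threshold within 20 Mb of Per1 or Per2. A few genes that the rule takes are not reported here. The comparison, the lists and the rule were chosen with earlier results of these data known.

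Replicate numbers were checked for pairing. The 30 same-number pairs of libraries across groups deviated together with r of -0.213 to 0.422 (median 0.0108), the CT1 groups share only the number 5, and the labels do not say that a number marks an animal or a litter, so the main fit held no block. Alternatives were RLE and upper-quartile scaling, library totals alone, DESeq2 1.42.0, limma-voom with quality weights (limma 3.58.1), no filter on low counts, a mean of at least 5 CPM, the 6 CT1 libraries alone, a replicate block, the rod score as a covariate, leaving out each CT1 library, and leaving out all 5 pools.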

Additional observations from a re-analysis of the deposited data

Results flagged for a closer look

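Every value here is the KO minus WT log2 difference at CT1 minus the mean of that difference at CT10, CT19 and CT22, in genes the text names. Each was picked out because its Benjamini-Hochberg adjusted p was under 0.05 in edgeR's test, because the CT1 difference differed from those at the other times. Among clock genes the values were Per2 (1.69), Per3 (1.56) and Tef (0.76) upwards and Arntl (-1.74), Rorb (-1.26), Usp2 (-1.04), Rora (-0.80) and Nr1d1 (-0.78) downwards. Among photoreceptor genes they were Fscn2 (-2.03), Sag (-2.02), Gnat1 (-1.93), Gnb1 (-1.90) and Opn1sw (-1.67). Genes of energy metabolism, mitochondria and ribosomes stood at mt-Atp6 (-2.84), mt-Co3 (-2.70), mt-Co2 (-2.44), Pgam1 (-2.33), Pkm (-1.56), Sdhaf1 (-1.48), Top1mt (-1.46), Hk1 (-1.44), Cox5a (-1.25), Atp5b (-1.08), Aldoa (-1.07), Rpl4 (-1.05) and Rpl8 (-0.97). The other genes below the mean of the other times were Vsnl1 (-3.18), C430042M11Rik (-3.15), Dusp5 (-2.50), Rundc3a (-2.49), Gjd2 (-2.31), Slc1a3 (-2.23), Cplx3 (-2.19), Dnah9 (-2.16), Gm5529 (-2.12) and Tube1 (-2.07). To these were added Dusp14 (-2.01), Ubtd1 (-1.96), D1Ertd622e (-1.83), Cited2 (-1.63), Hcls1 (-1.59), Dock8 (-1.52), Ccdc117 (-1.44), Gabarapl1 (-1.15), Aqp1 (-1.15), Hsp90aa1 (-0.91) and Thap4 (-0.78). The other genes above it were Sec1 (2.41), Zfp57 (1.86), Alpk1 (1.81), Lrrc29 (1.61), Gdpd2 (1.60), Aifm3 (1.57), Cys1 (1.43), Adam23 (1.43), Caskin1 (1.39), Fras1 (1.25), Flna (1.23), Myo7a (1.21), Pag1 (1.17), Rassf2 (1.12), Npepl1 (1.06), Nr2e1 (0.96) and Col1a2 (0.95). At CT1 the rod score of the libraries was 9.13 to 9.33 in KO and 10.26 to 10.75 in WT. Once that score was a covariate no gene passed in edgeR's test (1416 at an unadjusted p under 0.05). The part of the rod score in each value was not tested. In mt-Atp6, mt-Co2 and mt-Co3 the high level was that of WT replicate 2. Many of the genes were named for their CT1 difference, which is part of each value, so large values were favoured by the choice.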

How the results depend on the processing

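The 108 genes called at CT1 (45 higher and 63 lower in KO) became 69 higher and 58 lower with RLE, 55 and 56 with upper-quartile scaling, and 102 (77 and 25) with library totals alone, which shifted the median of all genes by log2 0.152. DESeq2 called 1107 (464 and 643), limma-voom with quality weights 348 (101 and 247), a fit with no filter on low counts 1556 (552 and 1004), a fit of genes with a mean of at least 5 CPM 202 (83 of them lower), and a fit of the 6 CT1 libraries alone 693 (197 and 496). Adding the rod score left 12 (9 and 3), and leaving out the 5 pools left 8 (3 and 5). Leaving out 1 CT1 library gave 20 to 151 in all, 14 to 64 higher and 6 to 87 lower. Samples that share a replicate number are not known to be paired. A replicate block, whose 9 extra terms leave few degrees of freedom, left 3 calls (3 higher and 0 lower; Ciart, Per2 and Per3), with 2100 genes at an unadjusted p under 0.05. Of the 108 genes none changed direction in any of these fits. Where 1 CT1 library was left out this was largely fixed in advance, since KO and WT did not overlap in any of the 108. The cause of the differences in count was not tested.

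The contrast of CT1 against the other times called 2389 genes, and 2081 to 3271 with other scalings, tools or filters. It called 898 without the 5 pools, 392 to 2289 with 1 CT1 library left out, 0 with the rod score (1416 at an unadjusted p under 0.05, edgeR) and 0 with the replicate block (3128). It was not run on the CT1 libraries alone, which hold no other time.

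Per2 passed under every alternative, at log2 2.76 to 3.37. Per1 did not pass with the replicate block (log2 2.03, adjusted p = 0.216), with the rod score (2.25, 0.0876), without WT replicate 2 (2.06, 0.0563) or without the 5 pools (2.32, 0.0624), and ran from log2 1.60 to 2.24 with 1 CT1 library left out.

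Some list medians moved by more than the spread between libraries. Clock repressors stood at log2 1.60 with library totals alone, 1.32 with limma-voom, 1.66 without the 5 pools and 1.204 to 1.56 with 1 library left out. Outer segment uptake stood at 0.37 with library totals alone, 0.075 with the replicate block, -0.14 with the rod score and 0.065 to 0.26 with 1 library left out. RPE markers stood at -0.057 with the replicate block, -0.41 with the rod score, -0.062 without the 5 pools and -0.011 to 0.29 with 1 library left out. Oxidative phosphorylation stood at -0.25 with library totals alone, -0.19 with the rod score and -0.50 to -0.28 with 1 library left out. Ribosomal proteins stood at 0.038 and glycolysis at -0.026 with the rod score, and glycolysis at -0.63 with the replicate block. Rods stood at -1.13 with library totals alone, 0.0040 with the rod score and -1.37 to -1.13 with 1 library left out. The rod score is the mean of these same genes, so their median near 0 in that fit was fixed in advance.

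Single genes that changed sign were all without a call in the main fit. Some were called lower in other fits. Gnat1 passed with limma-voom, with no filter on low counts and with the CT1 libraries alone. Rorb passed in the last 2 of these, and Pkm with DESeq2 and with no filter. With the rod score the log2 values were Sag 0.54, Gnat1 0.061, Rora 0.10, Rorb 0.045, Pkm 0.015, Rpe65 -0.086, Lrp1 -0.099, Csnk1d -0.14, Timeless -0.17 and Fbxw11 -0.039. Sag and Gnat1 are themselves part of that score. Nampt stood at 0.021 with RLE and with upper-quartile scaling, 0.022 with DESeq2, 0.14 with library totals alone, 0.032 with limma-voom, 0.068 with a mean of at least 5 CPM and 0.00088 with the CT1 libraries alone. Csnk1e stood at -0.12 and Usp2 at -0.034 with limma-voom, and Usp2 at -0.0065 with the replicate block. With 1 library left out, the ranges were -0.11 to 0.17 for Fbxw11, -0.13 to 0.064 for Nampt, -0.27 to 0.18 for Csnk1e, -0.11 to 0.12 for Usp2 and -0.090 to 0.56 for Timeless. With 3 libraries a group, the size of a difference in genes near the lowest detectable level, such as Npas2, is poorly fixed.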
